A study of Mus musculus with 18 samples.

Results

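The vertebrate actins fall into 3 classes, and 6 actin genes with 4 partner genes of smooth muscle were followed here through the differentiation of a muscle cell line. Acta1 (skeletal muscle alpha actin) and Actc1 (cardiac muscle alpha actin) build the thin filaments of striated muscle. Acta2 (vascular smooth muscle alpha actin) and Actg2 (enteric smooth muscle gamma actin) are the smooth muscle isoforms. Actb and Actg1 are the cytoplasmic beta and gamma actins of every cell. Tagln (transgelin), Cnn1 (calponin 1), Cald1 (caldesmon) and Smtn (smoothelin) bind actin in smooth muscle and serve as its markers. The genes were chosen by name, and all 10 were found, each under 1 Ensembl identifier, among the 35275 genes of the table.

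All 18 libraries came from C2C12, a mouse line of myoblasts that exit the cell cycle and fuse into multinucleate myotubes when serum is withdrawn. The labels call the cells PAX7 NEG in every group. MUNC is a noncoding RNA made from the region upstream of Myod1, which encodes a master regulator of skeletal muscle. The 6 groups of 3 libraries were control cells labelled wild-type, cells overexpressing the spliced form of MUNC (MUNC spliced) and cells overexpressing its genomic form (MUNC genomic), each in growth medium with 20% fetal bovine serum (GM) and after 3 days in differentiation medium with 2% horse serum (DM3). The series calls the 3 libraries of a group biological replicates. Whether each line was 1 clone or a pool is not given in the sources used here, and a line and its group cannot be told apart. Overexpression of MUNC was not checked here. A separate label on cell stage disagreed with the sample title in 9 samples, and the titles were used.

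In cultured myoblasts Acta2 and Tagln are already transcribed, and during normal differentiation Actc1 and then Acta1 are switched on while the cytoplasmic actins decline. Many of these genes are targets of serum response factor (Srf), which binds a motif called the CArG box. Srf is driven by the myocardin-related cofactors Mrtfa and Mrtfb, which actin monomers hold in the cytoplasm, and in smooth muscle by Myocd. In striated muscle the same promoters also use E-boxes, the binding motif of Myod1 and its relatives.

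The promoters of 4 of the actin genes show these motifs and are printed because these genes respond to a shared set of factors. RefSeq windows on GRCm38.p6 were found for 7 of the 10 genes. The 250 bases before the annotated start are given 5′ to 3′ in the gene's direction. Capitals mark a CArG box (2 C, 6 bases that are A or T, 2 G) or the same motif with 1 C or G among its 6 inner bases.
Acta1 promoter: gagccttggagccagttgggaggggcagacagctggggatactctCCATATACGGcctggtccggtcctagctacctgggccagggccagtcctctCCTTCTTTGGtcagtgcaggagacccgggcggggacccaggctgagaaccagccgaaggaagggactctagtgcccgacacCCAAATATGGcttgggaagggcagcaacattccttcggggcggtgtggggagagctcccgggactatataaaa
Actc1 promoter: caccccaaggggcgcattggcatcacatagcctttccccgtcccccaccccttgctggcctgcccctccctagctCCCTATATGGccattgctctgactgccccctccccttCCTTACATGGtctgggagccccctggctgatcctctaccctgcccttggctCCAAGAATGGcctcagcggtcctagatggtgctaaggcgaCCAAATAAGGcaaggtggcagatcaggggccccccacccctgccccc
Acta2 promoter: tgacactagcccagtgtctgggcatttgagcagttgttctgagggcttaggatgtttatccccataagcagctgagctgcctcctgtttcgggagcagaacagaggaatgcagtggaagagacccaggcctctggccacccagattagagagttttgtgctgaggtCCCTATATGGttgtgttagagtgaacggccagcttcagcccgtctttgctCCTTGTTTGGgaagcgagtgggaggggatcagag
Actg1 promoter: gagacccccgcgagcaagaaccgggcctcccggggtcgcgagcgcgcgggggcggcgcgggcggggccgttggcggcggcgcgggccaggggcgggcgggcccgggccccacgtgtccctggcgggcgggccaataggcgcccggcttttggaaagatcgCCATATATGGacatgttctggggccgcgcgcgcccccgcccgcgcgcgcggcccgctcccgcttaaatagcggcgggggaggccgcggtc
All 4 lie on the minus strand, at chr8:123894776-123895025 for Acta1, chr2:114052876-114053125 for Actc1, chr19:34255374-34255623 for Acta2 and chr11:120348496-120348745 for Actg1.

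Acta1 held the exact CArG box CCAAATATGG 73 bases before its start, Actc1 held CCAAATAAGG 47 bases before and Actg1 held CCATATATGG 90 bases before. Acta2 had no exact match and held CCCTATATGG and CCTTGTTTGG, each with 1 inner G or C, 84 and 34 bases before its start. Such near matches also stood in Acta1 (2 of them) and Actc1 (3 of them). Over all 32851 RefSeq windows of 300 bases (250 before and 50 after a start), searched on both strands, 1.63% held an exact CArG box and 8.50% a near match. The windows of Cnn1, Cald1 and Smtn held neither. An E-box (CANNTG) was in every member's window and in 72.3% of all windows. The exact and near CArG boxes cannot be the same bases, and none of these matches is a measured binding site. All distances are from the annotated start, which was not checked against where transcription begins. The motif TATAAA stood 7 bases before that start in Acta1 and 33 bases after it in Actc1.

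The values are FPM, gene read counts scaled to the library's size, and reads recovered from them ranged from 38416702 to 68788327 per library. Libraries of a group correlated at 0.980 to 0.996 in log2(FPM + 1) across the 13869 tested genes, which are not independent replicates. Of the C2C12 markers, Myf5 (71.8 FPM) and Cdh15 (46.3 FPM) were present in control GM, whereas Myod1 (0.0285 FPM) and Myog (0.0287 FPM) were nearly absent. The summed level of 9 skeletal muscle markers was 128 to 164 FPM in control GM, 213 to 297 in control DM3, 452 to 1120 in MUNC spliced DM3 and 1020 to 1191 in MUNC genomic DM3. Des, the desmin gene, held most of the MUNC genomic DM3 sum, at 820 to 1010 FPM. In MUNC spliced DM3 it was at 37.3 to 94.4 FPM. Between the lines in DM3, 5 of the 9 were called higher in MUNC spliced and 1 lower (median 1.065). Of all genes 23.4% were called higher there and 20.8% lower. MUNC spliced DM3 replicate 1 stood apart from its 2 partners, with a sum of 1120 FPM against 459 and 452. It also had the highest value of its group for every member but Smtn, the cytoplasmic actins included, so results that turn on it are given without it too.

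Differences were tested with limma on log2(FPM + 1) in 1 fit of all libraries, and a gene counts as called where its p, adjusted over all tested genes by Benjamini-Hochberg, was under 0.05. All log2 changes below are on this scale, which understates changes near 0, and they are given with their standard error. In RNA from whole cultures, fewer cells expressing a gene and less RNA per cell cannot be told apart. The comparisons of both MUNC lines with control share the same control libraries. Libraries that did not overlap between compared groups were common. They made up 37.85% (MUNC genomic GM against control GM) to 62.77% (MUNC genomic DM3 against GM) of all tested genes.

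**Figure D1:**
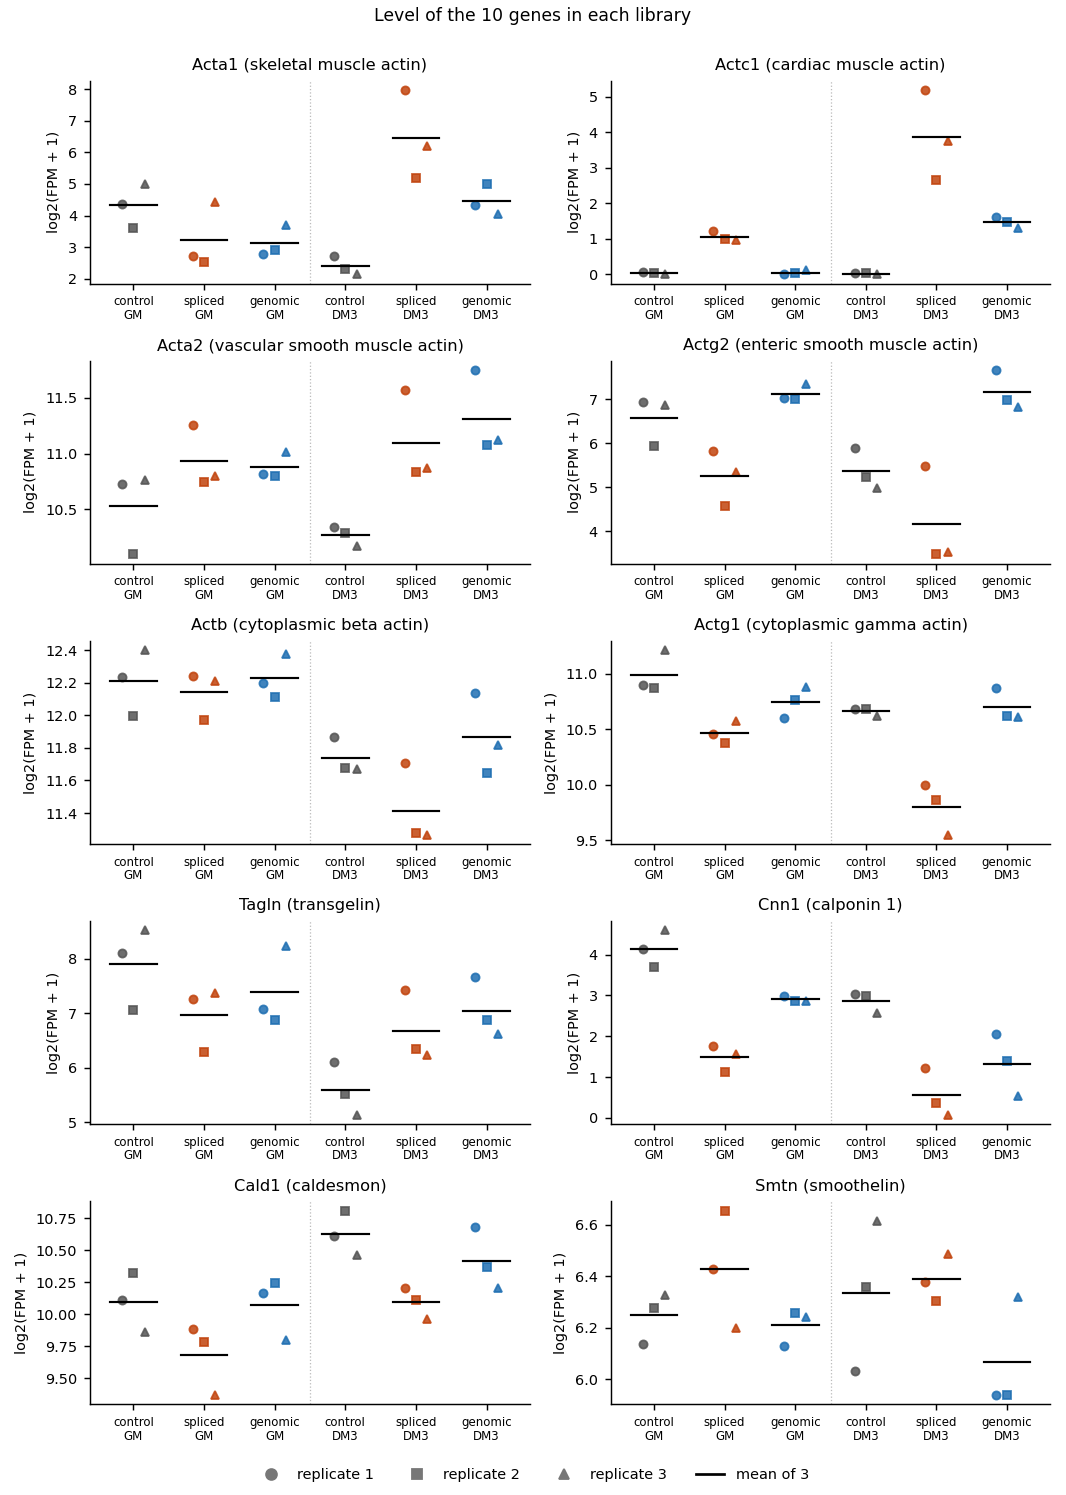
Level of each of the 10 genes as log2(FPM + 1) (vertical axis, not starting at 0) in every library of the 6 groups (horizontal axis); symbols give the replicate number and black lines the mean of 3. Acta1 and Actc1 peak in MUNC spliced DM3, Actg2 in the MUNC genomic groups, Cnn1 is highest in control GM, and Smtn is nearly level.

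The skeletal muscle actin fell from GM to DM3 in control cells and rose in MUNC spliced cells, and in DM3 it was higher in both MUNC lines than in control. Of the 9 skeletal muscle markers, 4 averaged 1 FPM or more in control DM3, against 9 in each MUNC line in DM3. From GM to DM3 in control, 4 of the 9 were called higher and 0 lower (median 0.38). Of all genes 29.6% were called higher there. Acta1 (chr8:123891769-123894751) was at 19.7, 11.2 and 31.0 FPM in control GM and at 5.68, 3.95 and 3.43 FPM in control DM3. The groups did not overlap, and the change of -1.93 ± 0.59 was called (adjusted p = 0.0102), although without control GM replicate 3 it was -1.59 with adjusted p = 0.0511. In MUNC spliced cells Acta1 went from 5.55, 4.82 and 20.5 FPM in GM to 250, 35.4 and 72.9 FPM in DM3. Every DM3 library lay above every GM library, and the rise was 3.23 ± 0.59 (adjusted p = 0.000615). In MUNC genomic cells Acta1 was at 5.91, 6.55 and 12.1 FPM in GM and at 19.3, 30.7 and 15.5 FPM in DM3. These groups too did not overlap, but the difference of 1.32 ± 0.59 was not called (adjusted p = 0.0721).

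Set against control in DM3, Acta1 was higher by 4.06 ± 0.59 in MUNC spliced (adjusted p = 4.3e-05) and by 2.06 ± 0.59 in MUNC genomic (adjusted p = 0.0104). In GM neither line differed from control by a called amount, at -1.10 ± 0.59 for MUNC spliced and -1.19 ± 0.59 for MUNC genomic. Without MUNC spliced GM replicate 3 the former was called, at -1.70 (adjusted p = 0.0358). Between the lines in DM3, Acta1 was higher in MUNC spliced by 2.00 ± 0.59 (adjusted p = 0.0115). Without MUNC spliced DM3 replicate 1 that difference was 1.24 with adjusted p = 0.0693.

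The cardiac muscle actin, which skeletal myoblasts also use early in differentiation, was detected at more than a few reads only in MUNC cells among these libraries. Actc1 (chr2:114047282-114053548) gave 5 reads in the 3 control GM libraries together, 2 in control DM3 and 5 in MUNC genomic GM. In MUNC spliced GM it stood at 1.31, 0.99 and 0.938 FPM, in MUNC spliced DM3 at 35.7, 5.31 and 12.4 FPM, and in MUNC genomic DM3 at 2.04, 1.81 and 1.46 FPM. These 3 groups did not overlap with any group at a few reads, nor with each other.

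As pooled read rates, Actc1 in MUNC spliced DM3 was 1364 times that in control DM3 (exact 95% interval 377 to 11270, from 2873 against 2 reads). MUNC spliced DM3 replicate 1 gave 1880 of those reads, and without it the ratio was 692 (191 to 5721). For MUNC genomic DM3 the ratio was 139 (38.2 to 1154, from 298 reads). In GM the ratio of MUNC spliced to control was 38.1 (16.0 to 119, from 158 against 5 reads), and that of MUNC genomic to control was 1.02 (0.235 to 4.43). These intervals cover counting error and not the spread between libraries. On the compressed log2 scale the rise over control in DM3 was 3.85 ± 0.38 for MUNC spliced (adjusted p = 7.02e-07) and 1.45 ± 0.38 for MUNC genomic (adjusted p = 0.00591). MUNC spliced exceeded MUNC genomic by 2.40 ± 0.38 in DM3 (adjusted p = 7.48e-05).

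With differentiation Actc1 rose by 2.82 ± 0.38 in MUNC spliced (adjusted p = 5.65e-05) and by 1.42 ± 0.38 in MUNC genomic (adjusted p = 0.00513). In GM the call for MUNC spliced was near the threshold, at 1.01 ± 0.38 against control (adjusted p = 0.0473) and 1.005 ± 0.38 against MUNC genomic (adjusted p = 0.0480). Both GM calls were lost when any 1 library of the compared groups was left out, at adjusted p of 0.0720 to 0.120. In the authors' deposited table for MUNC spliced GM against control GM, Actc1 passed at 5.27 (adjusted p = 1.82e-09). A stretch of 50 bases from the Actc1 transcripts was in no other gene's transcripts, and 2.22% of those of Acta1 were, so little exact sequence was shared.

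Among the smooth muscle actins, Acta2 was higher in both MUNC lines in DM3 and Actg2 moved in opposite directions in them. Acta2 (chr19:34241090-34255590) was at 1297, 1249 and 1155 FPM in control DM3, at 3036, 1830 and 1875 FPM in MUNC spliced DM3 and at 3443, 2156 and 2224 FPM in MUNC genomic DM3. Both MUNC groups lay wholly above control. The differences were 0.83 ± 0.24 for MUNC spliced (adjusted p = 0.00966) and 1.05 ± 0.24 for MUNC genomic (adjusted p = 0.00202). Without MUNC spliced DM3 replicate 1, the first of these was 0.59 with adjusted p = 0.0577.

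In GM, Acta2 stood at 1692, 1093 and 1735 FPM in control, 2442, 1719 and 1776 FPM in MUNC spliced and 1807, 1786 and 2063 FPM in MUNC genomic. The difference from control was 0.41 ± 0.24 for MUNC spliced (adjusted p = 0.194) and 0.35 ± 0.24 for MUNC genomic (adjusted p = 0.304), and neither was called. Quantile normalization called both, at 0.66 (adjusted p = 0.0168) and 0.64 (adjusted p = 0.0243). Differentiation itself gave no called change of Acta2 in control (-0.26 ± 0.24), MUNC spliced (0.16 ± 0.24) or MUNC genomic (0.44 ± 0.24). The 2 lines did not differ by a called amount in DM3 (-0.22 for MUNC spliced minus MUNC genomic, 95% interval -0.72 to 0.28).

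Actg2 (chr6:83512905-83536265) separated the 2 lines in both media. In GM it was at 122, 60.2 and 115 FPM in control, 56.0, 23.0 and 40.0 FPM in MUNC spliced and 129, 128 and 161 FPM in MUNC genomic. MUNC spliced lay wholly below the other groups of this medium, with a change of -1.32 ± 0.46 against control (adjusted p = 0.0334) and of -1.86 ± 0.46 against MUNC genomic (adjusted p = 0.00451). The difference between MUNC genomic GM and control GM, 0.54 ± 0.46, was not called (adjusted p = 0.427). The call against control was lost without control GM replicate 1 or 3 or MUNC spliced GM replicate 2 or 3 (-1.37 to -0.99).

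In DM3, Actg2 was at 58.5, 36.9 and 30.5 FPM in control, 43.9, 10.1 and 10.5 FPM in MUNC spliced and 202, 125 and 112 FPM in MUNC genomic. Each MUNC genomic library was above each library of the other groups. The rise over control was 1.78 ± 0.46 (adjusted p = 0.00516), and MUNC spliced lay below MUNC genomic at -2.99 ± 0.46 (adjusted p = 5.56e-05). MUNC spliced overlapped with control through its replicate 1. Its change of -1.21 ± 0.46 (adjusted p = 0.0420) was lost with edgeR (adjusted p = 0.127), with DESeq2 (0.153), without control DM3 replicate 1 or 2 and without MUNC spliced DM3 replicate 2 or 3 (-1.27 to -0.86). Without MUNC spliced DM3 replicate 1 it was -1.87. Between media, Actg2 fell in control by -1.21 ± 0.46 (adjusted p = 0.0322), and gave -1.09 ± 0.46 in MUNC spliced (adjusted p = 0.0723) and 0.03 ± 0.46 in MUNC genomic (adjusted p = 0.965). Without MUNC spliced DM3 replicate 1 the change in MUNC spliced was called, at -1.76 (adjusted p = 0.00141), and so it was without MUNC spliced GM replicate 2, at -1.43 (adjusted p = 0.0303). The control call was lost without control GM replicate 1 or 3, or without control DM3 replicate 2 or 3, at changes of -1.15 to -1.01.

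The cytoplasmic actins had their lowest means in MUNC spliced DM3, and of their 6 changes with differentiation 3 were called, all lower. Actb (chr5:142903115-142906754) went from 4825, 4079 and 5401 FPM in control GM to 3731, 3276 and 3261 FPM in control DM3, and from 4830, 4014 and 4743 FPM in MUNC spliced GM to 3336, 2476 and 2464 FPM in MUNC spliced DM3. In both cells the DM3 libraries lay below the GM libraries. The changes were -0.47 ± 0.19 in control (adjusted p = 0.0392) and -0.72 ± 0.19 in MUNC spliced (adjusted p = 0.00664). The control call was lost without control GM replicate 1 or 3 or control DM3 replicate 2 or 3 (-0.46 to -0.38), and both calls were lost when only the compared groups were fitted. In MUNC genomic cells Actb was at 4693, 4420 and 5309 FPM in GM and at 4504, 3210 and 3611 FPM in DM3, and the change of -0.36 ± 0.19 was not called (adjusted p = 0.119). No comparison of a MUNC line with control called Actb in either medium. For MUNC spliced minus MUNC genomic in DM3 it gave -0.45 ± 0.19, not called (adjusted p = 0.0584). Without MUNC spliced DM3 replicate 1 that difference was called, at -0.60 (adjusted p = 0.0253). It was also called with a pseudocount of 0.1 (adjusted p = 0.0490), edgeR (0.0298), DESeq2 (0.00973) and quantile normalization (0.0251).

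Actg1 (chr11:120345690-120348542) was lower in MUNC spliced cells in both media. It was at 1904, 1870 and 2369 FPM in control GM and 1408, 1331 and 1519 FPM in MUNC spliced GM, a change of -0.52 ± 0.14 (adjusted p = 0.0100). In DM3 the values were 1645, 1638 and 1570 FPM in control, 1021, 928 and 749 FPM in MUNC spliced and 1868, 1573 and 1564 FPM in MUNC genomic. The MUNC spliced libraries were below all others, by -0.86 ± 0.14 against control (adjusted p = 0.000161) and -0.90 ± 0.14 against MUNC genomic (adjusted p = 8.57e-05). Without control GM replicate 3 the GM change was -0.41 with adjusted p = 0.0561. The GM call was also lost when only the compared groups were fitted (adjusted p = 0.0619).

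Differentiation lowered Actg1 in MUNC spliced by -0.67 ± 0.14 (adjusted p = 0.00203). In control the change was -0.33 ± 0.14 (adjusted p = 0.0572), and with the replicate number as a block it was called (adjusted p = 0.0463). It was also called with edgeR (adjusted p = 0.0230), DESeq2 (0.0318) and without control GM replicate 2 (0.0486). In MUNC genomic the change was -0.05 ± 0.14 (adjusted p = 0.818). Actg1 shares the most sequence with other genes among the 10: 56.7% of the 50-base stretches of its transcripts also occur elsewhere, mostly in the pseudogene Gm12715. Gm12715 itself was at 1.90 to 6.83 FPM. For Actb the share was 14.2%, mostly with Lrrc58, at 117 to 231 FPM. How reads that fit more than 1 gene were counted is not given in the sources used here.

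Scaled by the length of the principal transcript, the 6 actins can be set against each other as shares of their sum. Acta1 and Actc1 together made 0.317% ± 0.11 of actin signal in control GM (SD, n = 3) and 0.0920% in control DM3. In DM3 they made 2.73% in MUNC spliced, where the libraries ranged from 1.04% to 4.95% and averaged 1.63% without replicate 1, and 0.401% in MUNC genomic. The striated muscle actins were thus a small part of actin mRNA in every library. Acta2 and Actg2 together made 18.5% in control GM, 19.6% in control DM3, 35.6% in MUNC spliced DM3 and 32.6% in MUNC genomic DM3. The cytoplasmic actins made 81.2%, 80.3%, 61.6% and 67.0% in the same groups. Of the 50-base stretches, 56.7% for Actg1 and 14.2% for Actb also occur in other genes. All shares may therefore depend on how such reads were counted, which is not given in the sources used here.

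The smooth muscle share of both MUNC lines in DM3 did not overlap with control DM3, at 16.0 and 13.0 percentage points above it. In GM it was 24.4% in MUNC spliced and 23.3% in MUNC genomic, also apart from control. With 3 libraries against 3, the two-sided exact permutation test cannot go below p = 0.10, and both DM3 differences reached it (0.142 after adjustment over 27 such tests). Within the smooth muscle class Acta2 carried nearly all of the signal. Per length, Actg2 made 1.68% of actin signal in control GM, 0.469% in MUNC spliced DM3 and 2.56% in MUNC genomic DM3. With the length of all exons of a gene in place of the principal transcript, the smooth muscle share was 41.2% in MUNC spliced DM3, 38.1% in MUNC genomic DM3 and 23.8% in control DM3.

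**Figure D2:**
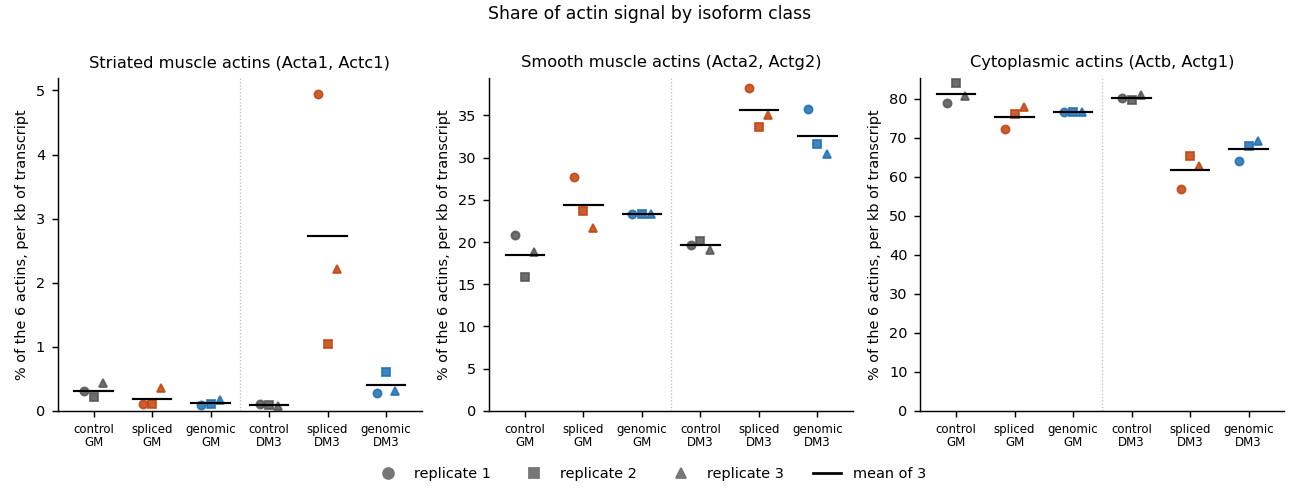
Share of the summed signal of the 6 actins, per kilobase of transcript, in percent (vertical axes, from 0 and on different scales) held by the striated, smooth muscle and cytoplasmic actins in each library of the 6 groups (horizontal axis); symbols give the replicate and black lines the mean of 3. In DM3 the smooth muscle share of both MUNC lines lies above control and the cytoplasmic share below it.

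Of the smooth muscle partner genes, Tagln fell with differentiation in control cells and Cnn1 was lower in both MUNC lines. Tagln (chr9:45929619-45936058), an actin-bundling protein of smooth muscle, was at 276, 133 and 366 FPM in control GM and at 68.2, 45.1 and 34.3 FPM in control DM3. The groups were far apart and the change was -2.31 ± 0.45 (adjusted p = 0.000387). In MUNC spliced it was at 152, 77.1 and 164 FPM in GM and 171, 80.3 and 74.4 FPM in DM3, and in MUNC genomic at 134, 116 and 300 FPM in GM and 201, 116 and 97.2 FPM in DM3. In both lines the media overlapped, and the changes of -0.30 ± 0.45 and -0.34 ± 0.45 were not called.

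In DM3 all MUNC libraries had more Tagln than all control libraries. The difference was 1.46 ± 0.45 for MUNC genomic (adjusted p = 0.0165). It was 1.07 ± 0.45 for MUNC spliced, not called (adjusted p = 0.0646), and called with the replicate number as a block (adjusted p = 0.0269). The MUNC genomic call was lost without control DM3 replicate 3 (1.23, adjusted p = 0.0730) and without MUNC genomic DM3 replicate 1 (1.15, adjusted p = 0.0842). The opposite-strand neighbour Pcsk7, which overlaps Tagln, was at 25.2 to 46.6 FPM. Whether counting used strand is not given in the sources used here.

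Cnn1 (chr9:22099216-22109630), an actin-binding inhibitor of smooth muscle myosin, was highest in control GM and lower in both MUNC lines in each medium. It was at 16.6, 11.9 and 23.1 FPM in control GM, 2.40, 1.19 and 1.98 FPM in MUNC spliced GM and 6.97, 6.23 and 6.32 FPM in MUNC genomic GM. The 3 groups did not overlap. The change against control was -2.65 ± 0.34 for MUNC spliced (adjusted p = 2.25e-05) and -1.23 ± 0.34 for MUNC genomic (adjusted p = 0.0134). The MUNC genomic call was lost with a pseudocount of 0.1 (adjusted p = 0.139), with edgeR (0.102), with DESeq2 (0.172) and without control GM replicate 3 (0.0656), and the change stayed between -1.41 and -1.01. In the authors' deposited table for MUNC genomic GM against control GM, Cnn1 passed at -1.36 (adjusted p = 8.81e-07). MUNC spliced was lower than MUNC genomic by a change of -1.42 ± 0.34 (adjusted p = 0.00410).

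In DM3, Cnn1 was at 7.16, 6.96 and 4.95 FPM in control, 1.35, 0.279 and 0.0542 FPM in MUNC spliced and 3.19, 1.63 and 0.449 FPM in MUNC genomic. Control lay above both lines, with changes of -2.31 ± 0.34 (adjusted p = 5.16e-05) and -1.53 ± 0.34 (adjusted p = 0.00190). MUNC spliced minus MUNC genomic was -0.78 ± 0.34 and not called (adjusted p = 0.0759). That difference was called without MUNC spliced DM3 replicate 1 (-1.12, adjusted p = 0.0164) and without MUNC genomic DM3 replicate 3 (-1.175, adjusted p = 0.00982). As pooled read rates the ratio to control was 0.0859 for MUNC spliced (exact 95% interval 0.0685 to 0.107, from 90 against 995 reads, 71 of them in replicate 1) and 0.274 for MUNC genomic (0.2397 to 0.313, from 292 reads). Without MUNC spliced DM3 replicate 1 the former was 0.0266 (0.0159 to 0.0418, from 19 reads). These intervals cover counting error only, and the libraries spread more widely than they do. With differentiation Cnn1 fell in control by -1.27 ± 0.34 (adjusted p = 0.00452), in MUNC spliced by -0.94 ± 0.34 (adjusted p = 0.0428) and in MUNC genomic by -1.58 ± 0.34 (adjusted p = 0.00117). The control fall was not called with a pseudocount of 0.1 (adjusted p = 0.0760), edgeR (0.0514) or DESeq2 (0.0998), nor was that in MUNC spliced with edgeR (0.0708), DESeq2 (0.0754) or without MUNC spliced GM replicate 1 or 3 or MUNC spliced DM3 replicate 2 or 3 (-0.89 to -0.70), and its media overlapped. In the authors' deposited table for control DM3 against GM, Cnn1 passed at -1.46 (adjusted p = 1.89e-07).

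Cald1 (chr6:34598500-34775473), which holds actin and myosin apart until calcium and calmodulin release it, was the only member called higher after differentiation of control cells. It rose from 1107, 1278 and 932 FPM in control GM to 1566, 1795 and 1414 FPM in control DM3, by 0.53 ± 0.18 (adjusted p = 0.0170). In MUNC spliced it was at 946, 881 and 661 FPM in GM and 1178, 1104 and 1000 FPM in DM3, and in MUNC genomic at 1148, 1215 and 889 FPM in GM and 1642, 1322 and 1181 FPM in DM3. These rises of 0.41 ± 0.18 and 0.35 ± 0.18 were of similar size and were not called. In DM3 MUNC spliced was below control, at -0.54 ± 0.18 (adjusted p = 0.0217). In GM the difference was -0.42 ± 0.18 against control (adjusted p = 0.0756) and -0.39 ± 0.18 against MUNC genomic (adjusted p = 0.0974), and both were called with the replicate number as a block (adjusted p = 0.00582 and 0.00878). The control rise was lost without control GM replicate 3 (0.41) or control DM3 replicate 2 (0.44), and the DM3 difference from control without control DM3 replicate 2 (-0.45) or MUNC spliced DM3 replicate 3 (-0.47).

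Smtn (chr11:3517523-3540612), a cytoskeletal protein of contractile smooth muscle, was called in no comparison. Its libraries ran from 60.4 to 99.7 FPM, and its group means from 66.6 FPM in MUNC genomic DM3 to 85.8 FPM in MUNC spliced GM. Between MUNC spliced and MUNC genomic in DM3 its difference was 0.32 (95% interval 0.01 to 0.63, adjusted p = 0.0832).

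**Figure D3:**
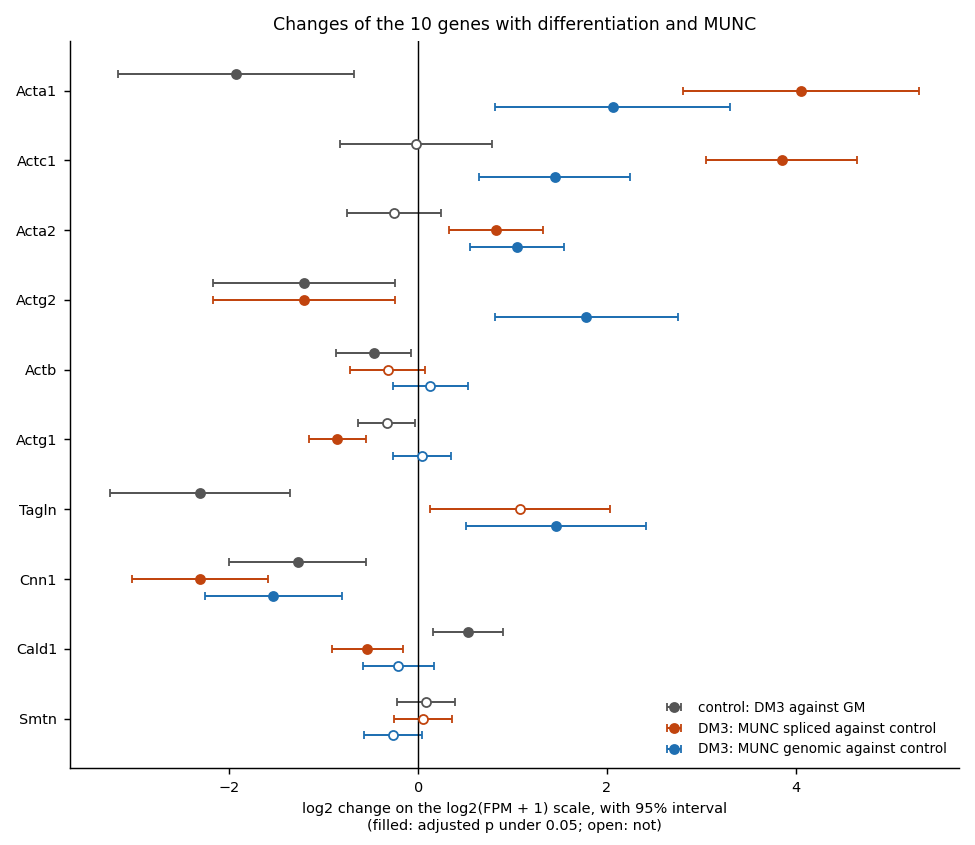
Log2 change of each of the 10 genes (rows) on the log2(FPM + 1) scale (horizontal axis) with its 95% interval, for control DM3 against GM and for each MUNC line against control in DM3; filled points passed the threshold. Actg2 lies on opposite sides of 0 in the MUNC lines, and Cnn1 lies below 0 in all 3 comparisons.

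Ordered by mean level, neighbouring groups mostly overlapped. For Acta1 MUNC spliced DM3 (119 FPM) stood apart at the top. Below it MUNC genomic DM3 (21.8 FPM), control GM (20.7 FPM), MUNC spliced GM (10.3 FPM) and MUNC genomic GM (8.201 FPM) overlapped in turn. Control DM3 (4.35 FPM) had the lowest mean and was apart from MUNC genomic GM, but overlapped with MUNC spliced GM. For Actc1 the top 3 groups were each apart from the next. For Actg2 the 2 MUNC genomic groups (146 FPM in DM3 and 139 FPM in GM) overlapped with each other. MUNC genomic GM was apart from control GM (99.2 FPM), whereas MUNC genomic DM3 overlapped with it. For Actb, Cald1 and Smtn no neighbouring groups were apart.

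Read against all tested genes, the share of members called lay above the background in some comparisons and below it in others. In control DM3 against GM, 6 of 10 members were called, 1 higher and 5 lower, where 58.2% of all tested genes were called (29.6% higher, 28.6% lower). In MUNC spliced DM3 against GM 5 were called, 2 higher and 3 lower (35.6% of all, 17.2% higher and 18.4% lower). In MUNC genomic DM3 against GM 2 were called, Actc1 higher and Cnn1 lower (51.4% of all, 26.3% higher and 25.1% lower). The members' share was near the background in control, above it in MUNC spliced and below it in MUNC genomic.

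Against control in GM, 4 members were called in MUNC spliced, 1 higher and 3 lower (35.5% of all genes, 18.2% higher and 17.3% lower), and 1 in MUNC genomic, lower (26.8% of all, 12.2% higher and 14.5% lower). Against control in DM3, 7 members were called in MUNC spliced, 3 higher and 4 lower (43.3% of all, 22.3% higher and 21% lower). In MUNC genomic 6 were called, 5 higher and 1 lower (40.3% of all, 19.3% higher and 20.9% lower). Between the lines, 3 members were called in GM, 1 higher in MUNC spliced and 2 lower (35.8% of all, 19.9% higher and 16% lower). In DM3 4 were called, 2 higher and 2 lower (44.2% of all, 23.4% higher and 20.8% lower). With libraries scaled to equal sums, 66.2% of called genes were higher in MUNC spliced GM against control GM, in place of 51.3%, and 56.2% in MUNC genomic GM, in place of 45.6%.

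An interaction compares a line's change from GM to DM3 with that of control cells. For MUNC spliced it was called for 3 members, all higher, where 14.4% of all genes were called (7.43% higher, 6.94% lower). Acta1 gave 5.16 ± 0.83 (adjusted p = 0.00132), Actc1 2.84 ± 0.53 (adjusted p = 0.00369) and Tagln 2.00 ± 0.64 (adjusted p = 0.0454). For MUNC genomic it was called for Acta1 alone, at 3.25 ± 0.83 (adjusted p = 0.0218), where 8.81% of all genes were called (3.56% higher, 5.25% lower). Tagln gave 1.96 ± 0.64 there and was not called (adjusted p = 0.0688). Actc1 gave 1.44 in MUNC genomic and was not called (adjusted p = 0.114), but was called with a pseudocount of 0.1 (4.02, adjusted p = 0.00137), with DESeq2 (7.03, adjusted p = 0.00034) and with the compared groups alone (adjusted p = 2.88e-05). Actc1 in MUNC spliced was lost with edgeR (5.11, adjusted p = 0.0913). Tagln in MUNC spliced was lost without any 1 of 8 libraries (1.63 to 2.17): control GM replicate 1 or 3, MUNC spliced GM replicate 1 or 2, control DM3 replicate 2 or 3, or MUNC spliced DM3 replicate 1 or 2. Acta1 in MUNC genomic was lost without control GM replicate 3, MUNC genomic GM replicate 1, control DM3 replicate 2 or 3, or MUNC genomic DM3 replicate 2 (2.91 to 3.20). The split of called genes in the MUNC spliced interaction was 51.7% higher, against 62.1% with edgeR and 41.4% with equal sums.

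Per the authors' deposited table of each comparison, most of these members had the same side of the threshold. In the authors' deposited table for MUNC spliced DM3 against control DM3, Acta1 had a log2 fold change of 4.78 (adjusted p = 1.23e-07) and Actc1 of 10.4 (adjusted p = 3.9e-18). The authors' deposited table for that comparison also passed Tagln at 1.14 (adjusted p = 0.00347) and did not pass Actg2 at -0.96 (adjusted p = 0.345). In the authors' deposited table for MUNC genomic GM against control GM, Acta1 had -1.29 (adjusted p = 0.00223), which was not called here. Tagln passed in the authors' deposited table for MUNC spliced GM against control GM at -0.98 (adjusted p = 0.0216), and Actg1 in that for control DM3 against GM at -0.37 (adjusted p = 0.0486).

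A list of 20 further smooth muscle contractile and associated genes, of which 17 were tested, held more called genes in MUNC genomic DM3 than in MUNC spliced DM3. Some of its genes are not particular to smooth muscle, and Des is also among the skeletal muscle markers used above. Against control DM3, 12 of the 17 were called higher and 0 lower in MUNC genomic (19.3% and 20.9% of all genes), with a median log2 change of 0.87 where all tested genes had -0.01. In MUNC spliced 4 were called higher and 3 lower, near the background of 22.3% and 21%, with a median of 0.01 for the list and 0.01 for all genes. The difference between the lines was itself called for 9 of the 17 genes, all lower in MUNC spliced, where 20.8% of all genes were. Leaving out 1 library left 9 to 12 called higher in MUNC genomic DM3, and other settings 10 to 13.

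In control differentiation 7 genes of this list were called higher and 4 lower (median 0.11), where 29.6% of all genes were called higher and 28.6% lower. They were led by Mylk (1.83 ± 0.42) and Des (1.68 ± 0.34) and, downward, by the transgelin relative Tagln2 (-2.26 ± 0.24) and the intermediate filament gene Vim (-1.51 ± 0.23). The lines shared some genes of this list and not others. Mylk, the myosin light chain kinase that starts smooth muscle contraction, was higher than in control DM3 by 2.70 ± 0.42 in MUNC spliced and 2.10 ± 0.42 in MUNC genomic. Synpo2, an actin-bundling protein, was higher by 2.60 ± 0.14 and 2.37 ± 0.14, and stood at 68.3 and 57.8 FPM against 10.4 FPM in control. Des, the muscle intermediate filament desmin, was at 898 FPM in MUNC genomic DM3, 58.8 FPM in MUNC spliced DM3 and 77.5 FPM in control DM3. Lmod1, the smooth muscle leiomodin that nucleates actin filaments, was at 23.6, 1.75 and 1.64 FPM in the same groups. Against control DM3 they were higher by 3.53 ± 0.34 and 3.18 ± 0.29 in MUNC genomic. Des and Lmod1 differed between the lines, by -4.02 ± 0.34 and -3.21 ± 0.29 for MUNC spliced minus MUNC genomic. Myl9, a regulatory light chain of smooth muscle and non-muscle myosin, was higher than in control DM3 by 0.87 ± 0.25 in MUNC genomic and lower in MUNC spliced, with a difference of -1.08 ± 0.25. Kcnmb1, a potassium channel subunit of smooth muscle, was lower than in control DM3 in MUNC spliced, with a difference of -0.98 ± 0.21 and gave -0.40 ± 0.21 in MUNC genomic, not called.

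**Figure D4:**
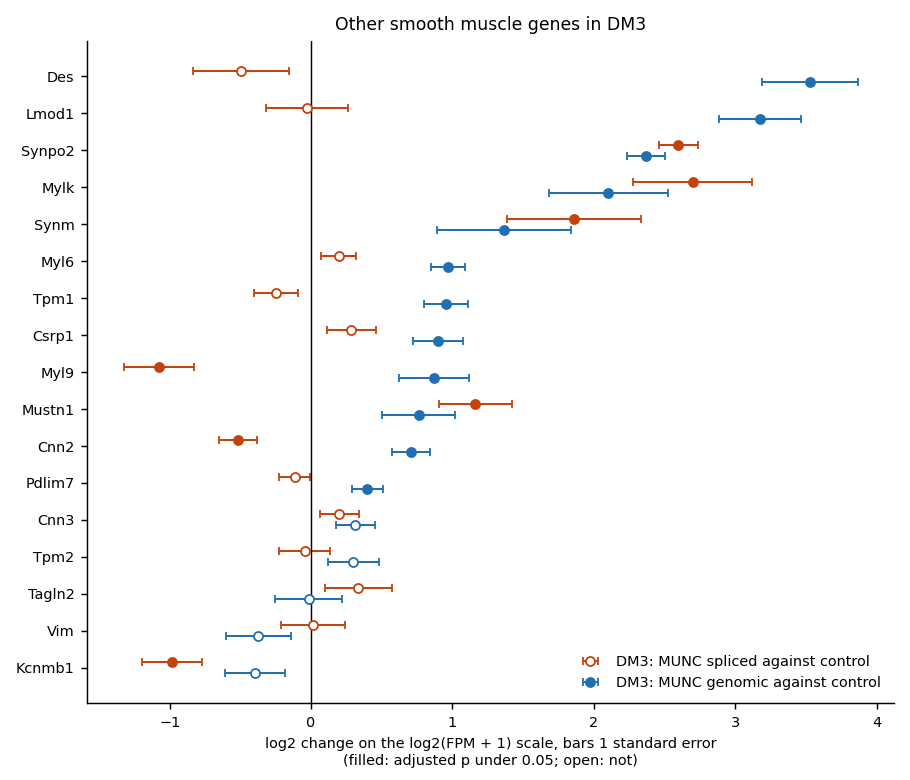
Log2 change against control DM3 on the log2(FPM + 1) scale (horizontal axis, bars 1 standard error) of the 17 tested genes of the smooth muscle list (rows) in MUNC spliced and MUNC genomic DM3; filled points passed the threshold. In MUNC genomic 12 genes are filled, all above 0, and in MUNC spliced 4 are above 0 and 3 below.

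Of 6 smooth muscle markers some were nearly absent and others were present. Myh11, the smooth muscle myosin heavy chain, averaged at most 0.247 FPM in any group, and Myocd, the smooth muscle cofactor of Srf, at most 0.0295 FPM with 0 reads in 4 of the 6 groups. The summed level of 6 smooth muscle markers was 11.8 to 15.7 FPM in control DM3, 59.4 to 81.6 in MUNC spliced DM3 and 76.4 to 85.6 in MUNC genomic DM3. Synpo2 and Lmod1 made most of it, and in MUNC spliced DM3 nearly all was Synpo2 (68.3 FPM, Lmod1 1.75). Against control DM3, 1 of the 3 tested markers was called higher and 1 lower in MUNC spliced (22.3% and 21% of all genes), with a median of -0.03. In MUNC genomic 2 were called higher and 0 lower (19.3% and 20.9% of all genes), with a median of 2.37. Acta2 and Tagln also mark myofibroblasts. The summed level of 7 fibroblast markers, most of it the collagen genes Col1a1 and Col1a2, was 5532 to 6435 FPM in control DM3, 11504 to 13112 in MUNC spliced DM3 and 5879 to 6401 in MUNC genomic DM3. Their part in the results for Acta2 and Tagln was not tested. Lists for leukocytes, adipocytes and endothelium summed to at most 7.62 FPM in any library. The 4 cardiac markers summed to 13.3 to 67.9 FPM and were nearly all Tnnt2, which embryonic skeletal muscle shares, with Myh6, Nppa and Myl7 each at most 0.165 FPM on average.

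Srf and its cofactors gave no called change in any comparison, while some of the target genes moved. In DM3 Srf averaged 91.5 FPM in control, 64.4 in MUNC spliced and 90.8 in MUNC genomic cells, and its change in MUNC spliced of -0.50 ± 0.20 missed the threshold (adjusted p = 0.0514). Mrtfa stood at 88.4, 84.6 and 85.0 FPM and Mrtfb at 53.2, 49.0 and 39.5 FPM in the same groups, and Myocd was too low to test. Of the 24 tested genes of Srf, its cofactors and targets, 12 were called higher and 0 lower in MUNC genomic DM3 against GM (median 0.51, all genes 0.02), where 26.3% of all genes were called higher. The counts were 8 and 0 in MUNC spliced (median 0.24, all genes -0.01), against 17.2% of all higher, and 7 and 2 in control (median 0.40, all genes 0.02), against 29.6% of all higher. Against control DM3 the counts were 3 higher and 4 lower in MUNC spliced and 4 higher and 2 lower in MUNC genomic, where 43.3% and 40.3% of all genes were called in either direction. These counts moved with the settings other than leaving out a library. Against control DM3 they gave 2 to 6 higher in MUNC spliced and 3 to 12 in MUNC genomic. From GM to DM3 they gave 7 to 13 higher in control, 5 to 11 in MUNC spliced and 10 to 14 in MUNC genomic.

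Within this list Zyx, the focal adhesion protein zyxin, was lower in MUNC spliced DM3, with a difference of -1.94 ± 0.15 against control (adjusted p = 4.86e-08). It averaged 275 FPM there, against 1067 in control and 1008 in MUNC genomic cells of that medium. Against control DM3, Tuft1 was also lower in MUNC spliced, with a difference of -0.96 ± 0.19, and the immediate early gene Egr2 was higher by 1.84 ± 0.57. Ccn2, a matricellular protein, was higher than in control DM3 by 1.06 ± 0.40 in MUNC spliced and 1.27 ± 0.40 in MUNC genomic. Its mean was lower in DM3 than in GM in all 3 cells, and in control the change was -2.10 ± 0.40. In MUNC genomic DM3, again against control DM3, Ccn1, a relative of Ccn2, was higher by 0.81 ± 0.22, and the LIM proteins Fhl1 and Fhl2 were lower, with differences of -1.33 ± 0.19 and -0.37 ± 0.13. In control differentiation Filip1l rose by 1.26 ± 0.18 and Junb, an AP-1 subunit, by 1.095 ± 0.22, and Tgfb1i1, a focal adhesion cofactor, fell with a change of -0.46 ± 0.16, which was -0.28 and not called without control GM replicate 3.

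Of 24 tested genes of proteins that handle actin monomers and filaments, 2 were called higher and 5 lower in control differentiation, where 58.2% of all genes were called. Against control DM3, 5 were called higher and 5 lower in MUNC spliced (43.3% of all) and 5 higher and 3 lower in MUNC genomic (40.3% of all). The first and last of these shares lie below the background and the second is near it, with medians of -0.14, 0.09 and 0.11. In control cells the filament-severing gelsolin gene Gsn rose by 1.48 ± 0.18 and the muscle cofilin gene Cfl2 by 1.05 ± 0.20, while the profilin gene Pfn1 and the non-muscle cofilin gene Cfl1 fell with changes of -1.13 ± 0.18 and -1.002 ± 0.18. In MUNC spliced DM3 the striated muscle leiomodins Lmod3 and Lmod2 were higher than in control DM3 by 1.51 ± 0.34 and 1.42 ± 0.23, Lmod3 by 0.90 without replicate 1, and Cfl2 and the twinfilin Twf2 were lower, with differences of -0.88 ± 0.20 and -0.76 ± 0.14. In MUNC genomic DM3 Twf1 was higher than in control DM3 by 0.79 ± 0.09 and the Arp2/3 subunit Actr3 by 0.68 ± 0.13, and Gsn and the monomer-binding thymosin Tmsb4x were lower than in control DM3, with differences of -0.98 ± 0.18 and -0.96 ± 0.28. The striated muscle leiomodins, Acta1 and Actc1 were all higher in MUNC spliced DM3.

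Of 9 actin-related and other actin genes only 4 were tested. Actl6a, an actin-related subunit of chromatin remodellers, fell in control differentiation with a change of -1.12 ± 0.10, as did the dynactin subunit Actr1b with -0.50 ± 0.11. Against control DM3, Actl6a was higher by 0.30 ± 0.10 in MUNC spliced and Actr1b by 0.62 ± 0.11 in MUNC genomic.

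Profiles most like those of Acta1 and Acta2 were sought among all tested genes, by the root mean square difference of log2(FPM + 1) over the 18 libraries after centring each gene. For Acta1 the closest were Myl4 (0.797) and Myl1 (0.871), both myosin light chains of striated muscle, with Actc1 (0.855) between them, then Gm7325 (0.884) and Baiap2l1 (0.900). The median over all tested genes was 1.53. For Acta2 the closest were Slc18b1 (0.227), Chst12 (0.230), Sec22a (0.232), Ext1 (0.244) and Agpat3 (0.247), against a median of 0.575. None of the 5 is a smooth muscle gene of the lists.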

How the data were processed

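Poly(A) RNA of 18 C2C12 libraries, 3 in each of 6 groups taken from the sample titles, was sequenced by the submitters. The submitters' processing notes name STAR, HTSeq, DESeq2 and the build mm10, and versions and the strand setting of counting are not given in the sources used here. The values deposited by the authors, FPM per the file headers, are a depth-scaled signal, and every value came out as a whole number of reads within 0.1 read once divided by the worth of 1 read. The authors' deposited tables of their own comparisons give log2 fold changes with p-values, and were used only where named.

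The deposited FPM were turned into log2(FPM + 1) and fitted with limma 3.58.1 in R 4.3.3, with all 6 groups in 1 model and 12 residual degrees of freedom. The test covered the 13869 of 35275 genes that reached 0.5 FPM in 3 or more libraries, and p-values were adjusted by Benjamini-Hochberg over all of them. A design on normalized values was planned, and count tests on the recovered reads (edgeR 4.0.16 and DESeq2 1.42.0) were alternatives. The fit was tested on simulated data. Recovered reads ranged from 38416702 to 68788327 per library, and 3 reads were worth at most 0.0757 FPM. Gene positions are from GENCODE M21, matched for 34490 genes, and promoters from RefSeq, both on GRCm38. Actin shares used FPM per kilobase.

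The members and lists were chosen with earlier results of these data known. The text names all 10 members. Of each list it names the 2 highest and 2 lowest called genes in control differentiation and in each line against control in DM3, with Srf, Mrtfa, Mrtfb and Myocd always. Other values of Mylk, Synpo2, Des, Lmod1, Myl9, Kcnmb1 and Zyx, and the marker genes printed singly, were chosen after their values were seen. Deviations of same-numbered libraries correlated above 0.1 in all 3 pairs for control GM with MUNC spliced GM (0.495 to 0.711), with MUNC genomic GM and with control DM3 (0.203 to 0.411), for the lines in GM, for control DM3 with each line, and for MUNC spliced GM with control DM3, which were not compared. The numbers were taken to pair those groups alone, a hint from the data and not from the labels. Alternatives were another pseudocount, no filter, edgeR, DESeq2, equal sums, quantile normalization, the compared groups alone, the replicate number as a block, a change of at least 1, and leaving out each library.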

Additional observations from a re-analysis of the deposited data

Results flagged for a closer look

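The interaction term of the limma fit over 18 libraries was called for 4 results. It compares the response to differentiation medium with that of control cells. The interaction of Acta1 was 5.16 in MUNC spliced and 3.25 in MUNC genomic cells. That of Actc1 was 2.84 and that of Tagln 2.00, both in MUNC spliced cells. The adjusted p values of the limma fit, and the libraries and settings that lost a call, stand with the results above.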

How the results depend on the processing

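Of the alternatives to a called change of a member, 304 kept its direction and side of the threshold and 32 lost the call. When 1 library was left out, 220 kept it and 56 lost it, and in none did a called change turn its direction. Of changes that were not called, 34 alternatives and 17 with a library left out gained a call. With the pseudocount at 0.1, called members numbered 0 in MUNC genomic GM against control GM (1 in the main analysis) and 2 in the MUNC genomic interaction (1). Without the filter they were 3 in MUNC spliced DM3 against GM (5), 2 in MUNC spliced GM against control (4) and 0 in the MUNC genomic interaction. In MUNC genomic GM against control they were 0 with edgeR, 0 with DESeq2 and 2 with quantile normalization. DESeq2 also gave 5 between the lines in GM (3) and 2 in the MUNC genomic interaction. Fitting the compared groups alone gave 3 in MUNC spliced DM3 against GM and 2 in the MUNC genomic interaction. Asking for an absolute change of at least 1 left 2 in MUNC spliced DM3 against GM and 4 in MUNC spliced DM3 against control (7). With the replicate number as a block, 5 members were called in MUNC genomic DM3 against GM (2), 8 between the lines in DM3 (4) and 2 in the MUNC genomic interaction, where the numbers were not taken to pair the libraries. Where they were, the block changed no member's call but those given above. Leaving out 1 library gave 2 to 7 called members in control DM3 against GM (6), 2 to 4 in MUNC spliced GM against control, 0 to 1 in MUNC genomic GM against control and 0 to 2 in the MUNC genomic interaction. Over all genes, the MUNC genomic interaction called 1222, against 777 with edgeR and 2265 with the block. The MUNC spliced interaction called 1993, against 3868 with the block and 1214 from the compared groups alone, and MUNC spliced DM3 against GM called 4933, against 3046 from the compared groups alone. The turns of direction were all of changes that were not called, and their cause was not tested. With a pseudocount of 0.1, Cnn1 gave -0.72 in the MUNC spliced interaction. With edgeR, Cnn1 gave -0.24 in the MUNC spliced interaction. With DESeq2, Cald1 gave 0.00357 in MUNC genomic GM against control GM, Cnn1 gave -0.28 in the MUNC spliced interaction. With equal sums, Actb gave 0.0443 in MUNC spliced GM against control GM, Cald1 gave 0.0377 in MUNC genomic GM against control GM, Smtn gave 0.0278 in MUNC genomic GM against control GM. With quantile normalization, Actb gave -0.0544 in MUNC genomic GM against control GM, Cald1 gave 0.20 in MUNC genomic GM against control GM, Acta1 gave -0.0363 in MUNC spliced GM against MUNC genomic GM. With 1 library left out, Actg2 ran from -0.55 to 0.46 in the MUNC spliced interaction and -0.22 to 0.20 in MUNC genomic DM3 against MUNC genomic GM. Actb ran from -0.0911 to 0.11 in MUNC genomic GM against control GM, -0.18 to 0.0248 in MUNC spliced GM against control GM, -0.00487 to 0.24 in MUNC genomic DM3 against control DM3 and -0.0217 to 0.22 in the MUNC genomic interaction. Cald1 ran from -0.15 to 0.11 in MUNC genomic GM against control GM. Actc1 ran from -0.0287 to 0.0295 in MUNC genomic GM against control GM. Smtn ran from -0.0939 to 0.00127 in MUNC genomic GM against control GM, -0.15 to 0.0743 in MUNC spliced DM3 against MUNC spliced GM, -0.0976 to 0.19 in MUNC spliced DM3 against control DM3, -0.0512 to 0.24 in control DM3 against control GM and -0.28 to 0.012 in the MUNC spliced interaction. Acta2 ran from -0.11 to 0.15 in MUNC spliced GM against MUNC genomic GM and -0.0766 to 0.32 in MUNC spliced DM3 against MUNC spliced GM. Acta1 ran from -0.51 to 0.43 in MUNC spliced GM against MUNC genomic GM. Actg1 ran from -0.13 to 0.0195 in MUNC genomic DM3 against MUNC genomic GM and -0.0442 to 0.0838 in MUNC genomic DM3 against control DM3. Tagln ran from -0.65 to 0.0741 in MUNC genomic DM3 against MUNC genomic GM. Cnn1 ran from -0.00157 to 0.58 in the MUNC spliced interaction and -0.67 to 0.0965 in the MUNC genomic interaction. Among the named list genes 509 alternatives kept the call and 23 lost it. Depth limits Actc1 in control and MUNC genomic GM, at 0 to 4 reads per library, and Cnn1 in MUNC spliced DM3.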
